A study of Drosophila melanogaster with 10 samples.

Results

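The 10 genes described here encode glycolytic enzymes and lactate dehydrogenase of Drosophila melanogaster: the hexokinases Hex-A and Hex-C, glucose-6-phosphate isomerase (Pgi), phosphofructokinase (Pfk), triosephosphate isomerase (Tpi), the glyceraldehyde-3-phosphate dehydrogenases Gapdh1 and Gapdh2, enolase (Eno), pyruvate kinase (Pyk) and lactate dehydrogenase (Ldh). They were chosen by name, for their place in the pathway, out of 14310 genes in the expression table. All 10 were found, and all 10 passed the filter on low values that left 8784 genes for testing. RNA was sequenced from midguts of adult males kept on yeast alone at 25 °C with 12 h of light, dissected on day 7, with 20 midguts pooled in each library. The 5 control libraries came from w1118/Y ; ; UAS-dHNF4 RNAi NIG9310-R2/+ males, which carry the RNAi transgene without a driver. The 5 libraries labelled dHNF4 RNAi came from w/Y males that carried the same NIG9310-R2/+ transgene together with mex-GAL4/+, a driver active in enterocytes and meant to express the hairpin against the nuclear receptor gene Hnf4. The transgene was thus shared by both groups, the driver was present in the second group alone, and all the RNAi libraries rest on 1 RNAi line.

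Glycolysis turns glucose into pyruvate in the cytosol, with a small yield of ATP and of reduced NADH. Hexokinase traps the sugar as glucose 6-phosphate, phosphofructokinase commits it to breakdown, the dehydrogenase Gapdh makes the NADH, and pyruvate kinase makes the final ATP. Lactate dehydrogenase turns pyruvate into lactate and gives back NAD+, which lets the Gapdh step go on when mitochondria do not take up the NADH. In the midgut these enzymes act in absorptive enterocytes, in progenitors and in the surrounding muscle, and Hnf4 is known in flies for its role in lipid breakdown, mitochondrial gene expression and glucose homeostasis.

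The values are TPM, a transcript level corrected for length and scaled to the same nominal total in each library; sums over genes ran from 975327 to 982443. The depth of the libraries is unknown, so no counting interval is given. Hnf4 itself averaged 38.8 ± 4.92 TPM (SD, n = 5) among controls and 45.6 ± 2.38 TPM (SD, n = 5) where dHNF4 RNAi was the label, a log2 difference of 0.24 (SE 0.083, limma adjusted p = 0.0199) that turned to -0.32 (adjusted p = 0.00133) after median-of-ratios scaling. In the authors' deposited table Hnf4 had a log2 fold change of -0.208 (unadjusted p = 0.419). The Hnf4 transcript level therefore does not check the labels on the TPM scale, nor in that table. The median TPM of the tested genes was 11.9 to 14.4 among controls and 18.6 to 19.3 in the other group, so the median gene stood 0.55 higher on the log2 scale. Median-of-ratios scaling, which sets the typical gene equal between libraries, brought this shift to 0.03, and each member is given below on both scales. Control and dHNF4 RNAi libraries fell on opposite sides of the first principal component (77.6% of the variance), with control 2 at -31.76 and the other controls between -49.35 and -45.87. On the TPM scale all 12 intestinal stem cell and enteroblast markers were called higher (summed level 26.0 to 58.5 TPM against 204 to 227 TPM). Of the 14 visceral muscle markers 1 was called higher and 3 lower (2624 to 3019 TPM against 2618 to 3051 TPM). Of the 7 tested fat body markers 4 were called lower (331 to 488 TPM against 224 to 271 TPM for all 12 on the list). Of the 7 tested enterocyte markers 3 were called higher and 1 lower. Of all tested genes 66.9% were called higher and 16.3% lower. After median-of-ratios scaling 11 stem cell and enteroblast markers were called higher, and 13 muscle and 5 fat body markers lower. Of the enterocyte markers 3 were then higher and 4 lower (all tested genes: 37.6% and 34.6%). In such bulk samples fewer cells of a type and less RNA per cell cannot be told apart, and the part of these cell types in the results was not tested.

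On the TPM scale, 4 of the 10 members were called higher in the libraries labelled dHNF4 RNAi, namely Hex-A, Gapdh1, Gapdh2 and Eno, and none was called lower (limma on log2(TPM + 1), Benjamini-Hochberg adjusted over 8784 genes, threshold 0.05). The background was 66.9% of tested genes called higher and 16.3% called lower. The same 4 members had groups that did not overlap, which held for 60.3% of tested genes in the higher direction. After median-of-ratios scaling, only Gapdh1 was called higher, against a background of 37.6%, and 7 members were called lower, against a background of 34.6%: Hex-C, Pgi, Pfk, Tpi, Gapdh2, Eno and Pyk. Hex-A and Ldh were not called on that scale, on which 1 member lay wholly higher and 5 wholly lower without overlap (background 30.2% and 28.1% of tested genes). Quantile scaling gave 4 members called higher, Hex-A, Gapdh1, Gapdh2 and Eno, and 1 called lower, Hex-C (background 44.3% and 29.1%). Rescaling each library without the genes most abundant over all libraries and those of the mitochondrial genome gave 4 higher and 0 lower (background 63.2% and 19.2%). The median log2 difference of the 10 members was 0.18 on the TPM scale, where all tested genes had 0.55, and -0.39 after median-of-ratios scaling, where all tested genes had 0.03. Hex-A and Gapdh1 were the 2 members above the median of all tested genes, and the other 8 lay below it. The glycolytic genes as a group thus did not move as one: the spread between members ran from 0.45 above the all-gene median for Hex-A to 0.81 below it for Pgi (-0.81).

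**Figure D1:**
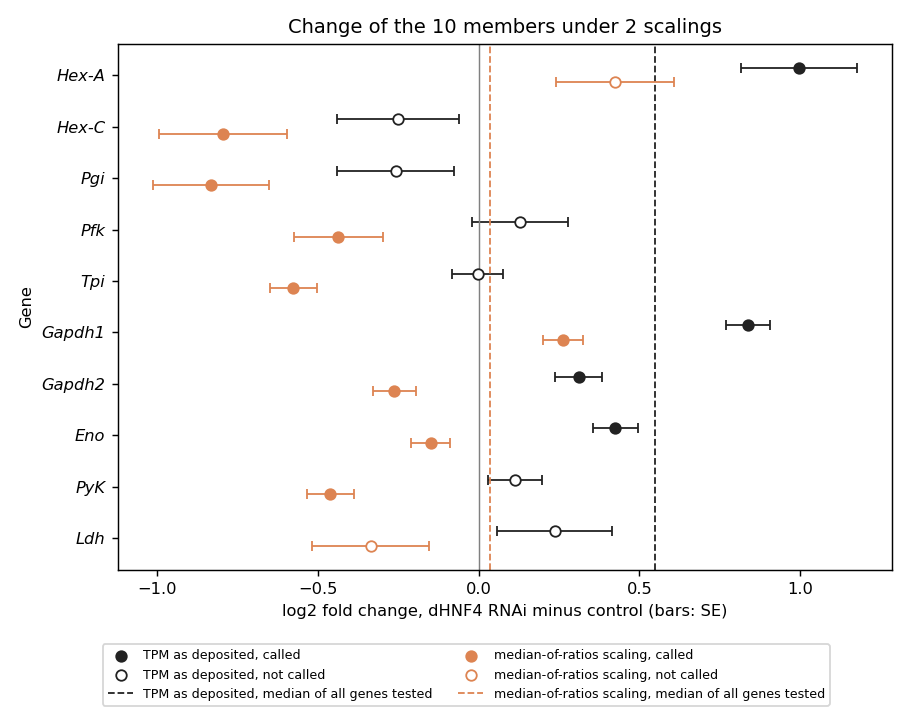
Log2 difference (libraries labelled dHNF4 RNAi minus control, n = 5 each) of the 10 members on the TPM scale and after median-of-ratios scaling, with standard errors; lines mark the median of all 8784 tested genes on each scale. Hex-A and Gapdh1 lie above that median on both scales, and Gapdh2 and Eno lie above 0 on the TPM scale and below 0 after median-of-ratios scaling.

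Hex-A encodes the widely expressed hexokinase and lies on chromosome X, 9585675 to 9589813, plus strand, with 3 annotated transcripts (BDGP6.54). Its TPM was 139, 171, 124, 165 and 171 in controls 1 to 5 and 356, 295, 217, 258 and 456 in dHNF4 RNAi libraries 1 to 5. Every library labelled dHNF4 RNAi lay above every control, and the spread between replicates was wider in that group, with a coefficient of variation of 29.5% against 13.8%. The mean rose from 154 ± 21.2 to 316 ± 93.3 TPM (SD, n = 5), a log2 difference of 1.00 (SE 0.18, limma adjusted p = 0.000282), at the 83.1 percentile of tested genes. Without dHNF4 RNAi library 5, the highest, the log2 difference was 0.85 (adjusted p = 0.000302). After median-of-ratios scaling it was 0.43 (adjusted p = 0.0564) and the groups overlapped.

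Hex-C, a second hexokinase known from the fat body, lies on chromosome 2R, 15218837 to 15220329, minus strand, with 1 transcript. It was the least abundant member, at 18.6, 15.3, 16.5, 22.6 and 23.7 TPM in controls 1 to 5 and 15.99, 10.9, 18.4, 23.7 and 13.1 TPM in dHNF4 RNAi libraries 1 to 5. The groups overlapped over most of their range, and controls 4 and 5 and dHNF4 RNAi library 4 were the 3 highest. The means were 19.3 ± 3.72 and 16.4 ± 4.96 TPM (SD, n = 5), a log2 difference of -0.25 (SE 0.19, limma adjusted p = 0.235, 95% interval -0.67 to 0.17) on the TPM scale and of -0.79 (adjusted p = 0.00407) after median-of-ratios scaling. The TPM difference depended on single libraries: it was -0.39 and was called without dHNF4 RNAi library 4 (adjusted p = 0.0486), and was -0.13 without library 2 (adjusted p = 0.517). Hex-C overlaps CG8079 on the opposite strand, and whether strand was used in the authors' quantification is not given in the sources used here.

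The libraries highest in Hex-C were also those with most Malpighian tubule transcript, the tubules being excretory organs that join the gut at the hind end of the midgut. The summed level of 6 tubule markers (Uro, CapaR, Lkr, Irk3, ZnT35C and NaPi-T) was 4.25, 5.40, 5.40, 44.8 and 84.3 TPM in controls 1 to 5 and 40.9, 19.8, 24.1, 85.2 and 5.07 TPM in dHNF4 RNAi libraries 1 to 5. Uro, urate oxidase, which defines tubule main cells, was at 0 in controls 1 and 2 and in dHNF4 RNAi library 5. These levels overlapped fully between the groups. The sum left out Irk2, a potassium channel gene and the other marker on the list of 7, a choice made after the data were seen; with Irk2 the sums were 113 to 211 TPM in controls and 126 to 219 TPM in dHNF4 RNAi libraries, and controls 4 and 5 and dHNF4 RNAi library 4 were again the 3 highest. Of the 7 markers 5 were tested, Irk2 among them, and none was called. With the log2 summed level as a covariate, chosen after seeing the data, Hex-C was called lower at -0.37 (SE 0.14, limma adjusted p = 0.0270), while Hex-A, Gapdh1, Gapdh2 and Eno stayed called higher at 1.01, 0.85, 0.31 and 0.44 on the TPM scale. With Irk2 in the covariate Hex-C was at -0.29 and was not called (adjusted p = 0.0662), and the other 4 stayed called. Fat body markers were also lower in the libraries labelled dHNF4 RNAi, as given above, and their part in the level of Hex-C was not tested.

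**Figure D2:**
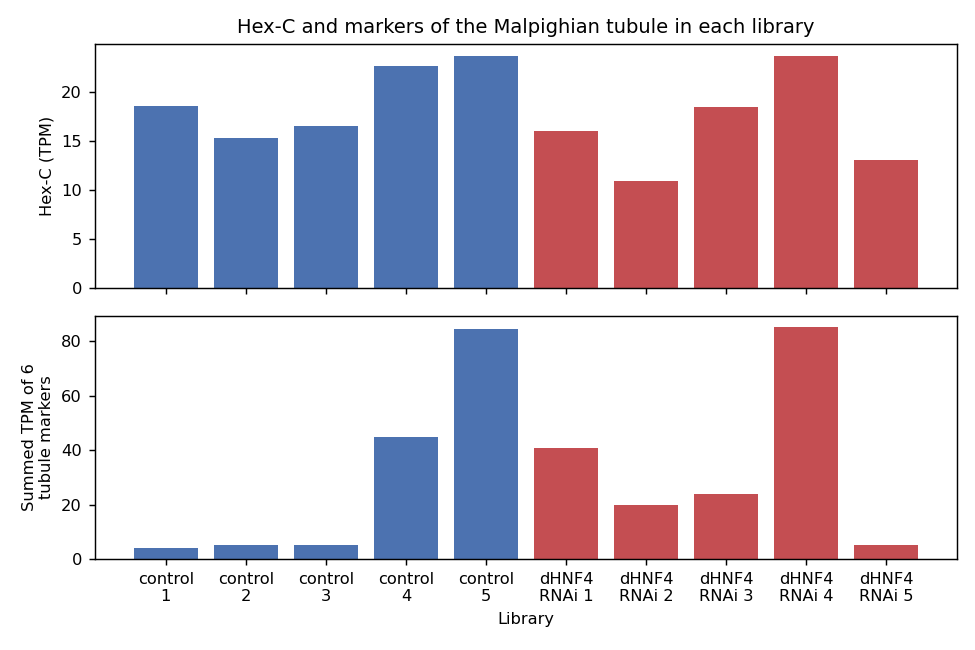
Hex-C level (TPM, upper panel) and summed level of 6 Malpighian tubule markers (TPM, lower panel) as bars for each library, 5 per group. Controls 4 and 5 and dHNF4 RNAi library 4 are highest in both panels, with Hex-C at 22.6, 23.7 and 23.7 TPM.

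Pgi converts glucose 6-phosphate into fructose 6-phosphate and lies on chromosome 2R, 8910900 to 8914069, minus strand, with 3 transcripts. Its TPM was 325, 429, 312, 381 and 405 in controls 1 to 5 and 324, 368, 312, 187 and 393 in dHNF4 RNAi libraries 1 to 5. The groups overlapped except for dHNF4 RNAi library 4, which lay well below every other library. The means were 370.2 ± 50.5 and 317 ± 79.7 TPM (SD, n = 5), a log2 difference of -0.26 (SE 0.18, limma adjusted p = 0.205, 95% interval -0.66 to 0.14). Without dHNF4 RNAi library 4 it was -0.08 (adjusted p = 0.520). After median-of-ratios scaling the difference was -0.83 (adjusted p = 0.00167), the lowest of the 10 members, and the groups did not overlap.

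Pfk catalyses the committed step of glycolysis and lies on chromosome 2R, 10109740 to 10117457, plus strand, with 5 transcripts. Its TPM was 52.2, 71.98, 45.6, 53.4 and 53.4 in controls 1 to 5 and 59.5, 65.8, 57.6, 43.9 and 77.7 in dHNF4 RNAi libraries 1 to 5. Control 2 was high among the controls, dHNF4 RNAi library 4 was the lowest of all 10, and the groups overlapped. The means were 55.3 ± 9.87 and 60.9 ± 12.4 TPM (SD, n = 5), a log2 difference of 0.13 (SE 0.15, limma adjusted p = 0.439, 95% interval -0.20 to 0.46) that turned to -0.44 (adjusted p = 0.0158) after median-of-ratios scaling. Leaving out 1 library moved the TPM difference between 0.036 (without dHNF4 RNAi library 5) and 0.24 (without library 4), and it was called in none of these 10 fits.

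Tpi interconverts the 2 triose phosphates that leave the aldolase step and lies on chromosome 3R, 30132981 to 30134599, minus strand, with 3 transcripts. Its TPM was 319.7, 382, 318, 332 and 347 in controls 1 to 5 and 319, 381, 353, 295 and 351 in dHNF4 RNAi libraries 1 to 5. Control 2 and dHNF4 RNAi library 2 were level at the top, and the groups overlapped almost fully. The means were 339.9 ± 26.3 and 339.8 ± 33.3 TPM (SD, n = 5), a log2 difference of -0.00 with a 95% interval of -0.18 to 0.17 (limma adjusted p = 0.974). Scaled by median of ratios, Tpi was called lower at -0.58 (adjusted p = 3.83e-05), and the groups did not overlap on that scale.

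**Figure D3:**
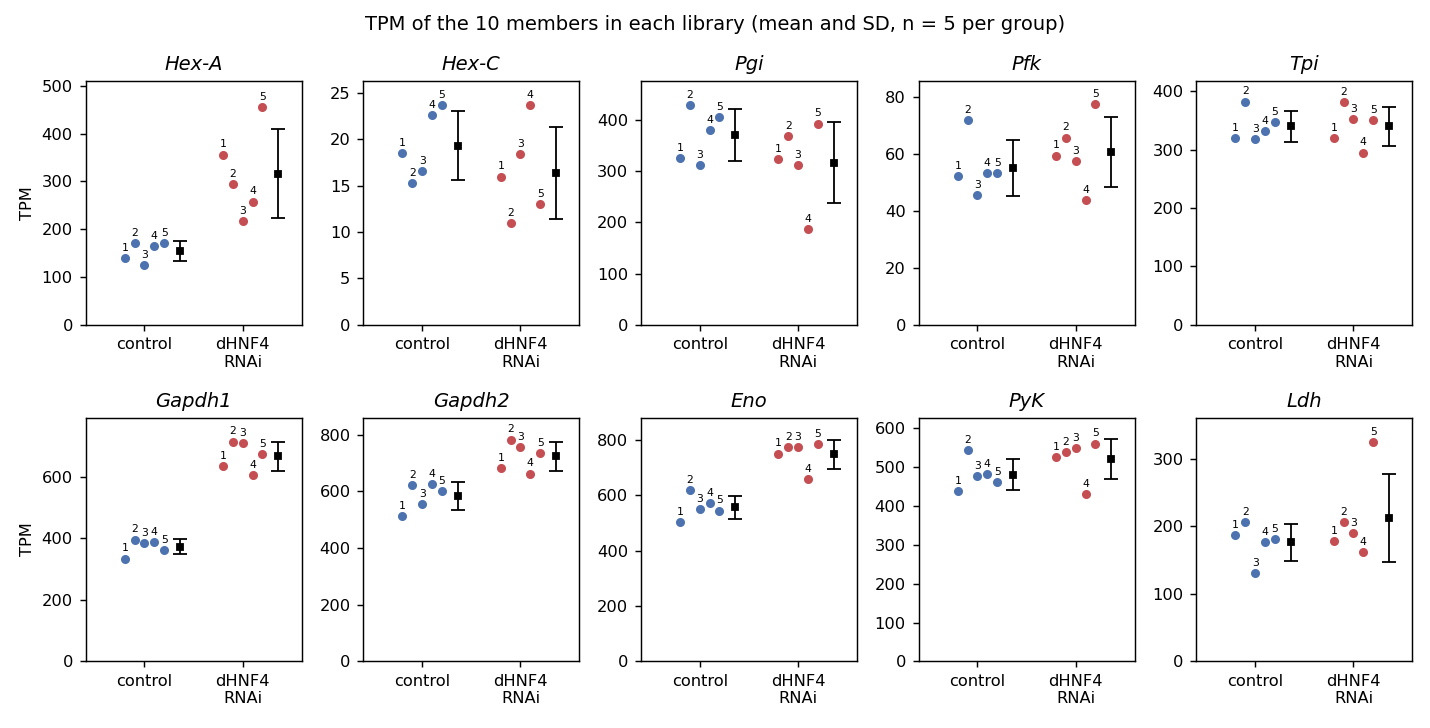
Level (TPM) of each of the 10 members in the 5 control and 5 dHNF4 RNAi libraries, 1 point per library, with the mean and SD of each group beside the points. Hex-A, Gapdh1, Gapdh2 and Eno have groups that do not overlap, and dHNF4 RNAi library 4 is the lowest of its group in 8 members.

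Gapdh1 and Gapdh2 encode closely similar glyceraldehyde-3-phosphate dehydrogenases, so reads that fit both genes had to be divided by the authors' estimation, and the split between them is uncertain. Gapdh1 lies on chromosome 2R, 7791901 to 7793380, minus strand, with 2 transcripts. Its TPM was 334.2, 396, 385, 388 and 363 in controls 1 to 5 and 635, 715, 709, 606 and 674 in dHNF4 RNAi libraries 1 to 5. All 5 libraries labelled dHNF4 RNAi lay far above the highest control. The mean rose from 373 ± 25.0 to 668 ± 47.3 TPM (SD, n = 5), a log2 difference of 0.84 (SE 0.068, limma adjusted p = 4.8e-07), at the 72.6 percentile of tested genes. Gapdh1 also rose after median-of-ratios scaling, by 0.26 (adjusted p = 0.00313), again with no overlap.

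Gapdh2 lies on chromosome X, 15868145 to 15869661, plus strand, with 2 transcripts, and was the most abundant member in the controls. Its TPM was 512, 621, 555, 625 and 602 in controls 1 to 5 and 682, 782, 755, 662 and 734 in dHNF4 RNAi libraries 1 to 5. The groups did not overlap, although the gap between them was small beside the spread within each. The mean went from 583 ± 48.5 to 723 ± 50.0 TPM (SD, n = 5), a log2 difference of 0.31 (SE 0.073, limma adjusted p = 0.00186) that turned to -0.26 (adjusted p = 0.00456) after median-of-ratios scaling.

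Eno forms phosphoenolpyruvate and lies on chromosome 2L, 1724768 to 1729636, minus strand, with 6 transcripts; it overlaps Rrp40 on the opposite strand. Its TPM was 503, 617, 549, 570.2 and 544 in controls 1 to 5 and 749.7, 774, 772, 657 and 783 in dHNF4 RNAi libraries 1 to 5. The groups did not overlap, and dHNF4 RNAi library 4 stood below the other 4 of its group. The mean went from 556 ± 41.5 to 747 ± 51.8 TPM (SD, n = 5), a log2 difference of 0.43 (SE 0.070, limma adjusted p = 0.000138) that turned to -0.15 (adjusted p = 0.0422) after median-of-ratios scaling.

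Pyk, written PyK in the gene table, makes pyruvate and ATP from phosphoenolpyruvate and lies on chromosome 3R, 22367536 to 22372746, plus strand, with 2 transcripts. Its TPM was 438, 545, 476, 483 and 461 in controls 1 to 5 and 526, 539, 549, 429.5 and 560.5 in dHNF4 RNAi libraries 1 to 5. Control 2 lay within the range of the other group and dHNF4 RNAi library 4 lay below all the controls, so the groups overlapped. The means were 481 ± 39.7 and 521 ± 52.6 TPM (SD, n = 5), a log2 difference of 0.11 (SE 0.084, limma adjusted p = 0.231, 95% interval -0.07 to 0.30) that turned to -0.46 (adjusted p = 0.000203) after median-of-ratios scaling. Without dHNF4 RNAi library 4 the TPM difference was 0.18 and was called (adjusted p = 0.0321).

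Ldh, which regenerates NAD+ by reducing pyruvate to lactate, lies on chromosome 3L, 6259105 to 6262694, minus strand, with 4 transcripts. Its TPM was 187, 206, 131, 177 and 181 in controls 1 to 5 and 178, 206, 190.3, 162 and 324 in dHNF4 RNAi libraries 1 to 5. Of the libraries labelled dHNF4 RNAi, 3 lay within the range of the controls, library 2 was level with the highest control, and library 5 lay far above all of them. The means were 176 ± 27.6 and 212 ± 64.7 TPM (SD, n = 5), a log2 difference of 0.24 (SE 0.18, limma adjusted p = 0.236, 95% interval -0.16 to 0.63) that turned to -0.34 (adjusted p = 0.119) after median-of-ratios scaling. Without dHNF4 RNAi library 5 the TPM difference was 0.07 (adjusted p = 0.600). Ldh was not called on either scale.

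Ratios between genes within a library hardly depend on how the whole library was scaled. For 4 pairs the TPM ratio is given per library, and the difference of log2(TPM + 1), which differs a little from the log2 of that ratio for low genes, was compared between groups with an exact two-sided permutation test over every assignment of the 10 libraries to 2 groups of 5, whose smallest p is 0.00794, adjusted over the 4. The ratio of Gapdh1 to Gapdh2 was 0.653, 0.638, 0.693, 0.621 and 0.604 in controls 1 to 5 and 0.931, 0.914, 0.940, 0.914 and 0.918 in dHNF4 RNAi libraries 1 to 5. The groups were far apart beside their spread, and the log2 ratio differed by 0.53 (exact permutation p = 0.00794, adjusted p = 0.0212). The 2 dehydrogenase transcripts thus went from unequal to near-equal levels, within the limit on dividing their reads.

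The ratio of Hex-A to Hex-C was 7.48, 11.2, 7.51, 7.30 and 7.20 in controls 1 to 5 and 22.3, 27.0, 11.8, 10.9 and 34.9 in dHNF4 RNAi libraries 1 to 5. All of the libraries labelled dHNF4 RNAi lay above 4 of the controls, and control 2 lay between libraries 4 and 3 of that group. The log2 ratio differed by 1.25 (exact permutation p = 0.0159, adjusted p = 0.0212). The call was lost without control 1, 3, 4 or 5, with differences of 1.21 to 1.22 and adjusted p of 0.0529 to 0.0635 by the same exact test.

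The ratio of Pfk to fbp set the glycolytic enzyme against fructose-1,6-bisphosphatase, which runs the opposite reaction in gluconeogenesis. It was 0.279, 0.295, 0.302, 0.247 and 0.211 in controls 1 to 5 and 0.429, 0.299, 0.360, 0.824 and 0.507 in dHNF4 RNAi libraries 1 to 5. Library 2 of the latter lay within the controls, library 4 stood highest, and the log2 ratio differed by 0.77 (exact permutation p = 0.0159, adjusted p = 0.0212), a call lost without control 1, 4 or 5. The level of fbp was 187, 244, 151, 217 and 253 TPM in controls 1 to 5 and 139, 220.0, 160.2, 53.2 and 153 TPM in dHNF4 RNAi libraries 1 to 5. Its log2 difference was -0.64 (SE 0.32, limma adjusted p = 0.0781) on the TPM scale and -1.21 (adjusted p = 0.00535) after median-of-ratios scaling, and Pfk was at 0.13 and -0.44 on these scales. Without dHNF4 RNAi library 4, at 53.2 TPM, the TPM difference of fbp was -0.32 (adjusted p = 0.107), and without library 2 it was -0.83 and was called (adjusted p = 0.0272).

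The ratio of Ldh to Pyk, the enzymes on either side of pyruvate, was 0.427, 0.378, 0.275, 0.366 and 0.392 in controls 1 to 5 and 0.338, 0.383, 0.347, 0.378 and 0.578 in dHNF4 RNAi libraries 1 to 5. The groups overlapped, control 3 being lowest and dHNF4 RNAi library 5 highest. The log2 ratio differed by 0.12 (exact permutation p = 0.548, adjusted p = 0.548), and by -0.01 without dHNF4 RNAi library 5.

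**Figure D4:**
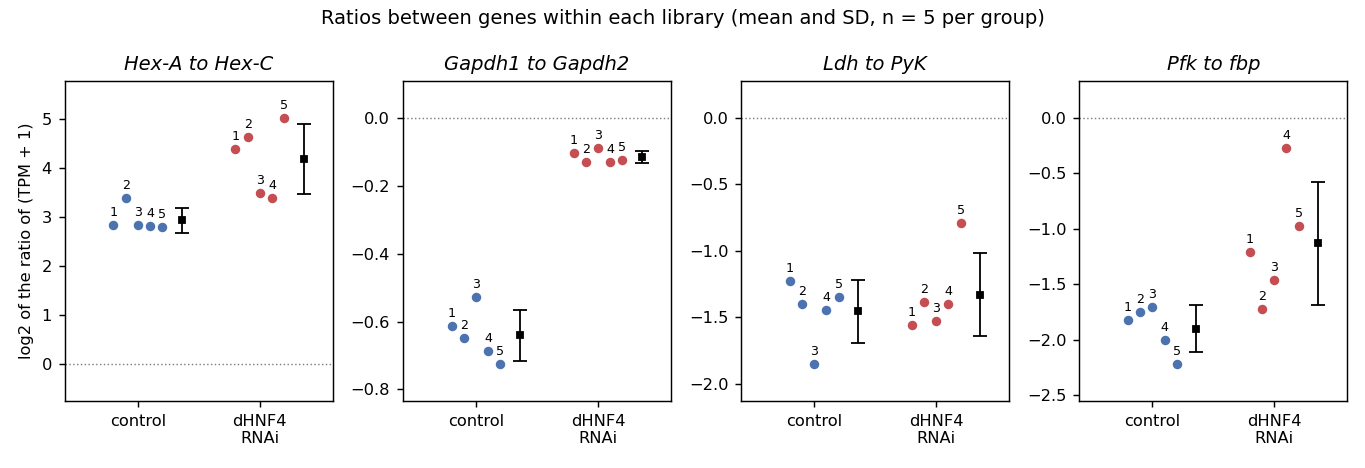
Log2 ratio of Hex-A to Hex-C, Gapdh1 to Gapdh2, Ldh to Pyk and Pfk to fbp within each library, 1 point per library, 5 per group, with means and SD. Only the Gapdh1 to Gapdh2 ratio has groups that do not overlap among these 4.

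The summed level of the 10 members was 3108 ± 247 TPM in the controls and 3921 ± 390 TPM (SD, n = 5) in the libraries labelled dHNF4 RNAi, or 0.311% and 0.392% of the nominal total, and the order turned to 3766 ± 137 and 3198 ± 353 after median-of-ratios scaling. The makeup of this sum moved in the same way on both scales, since a share is taken within a library. Gapdh1 made up 12.0% ± 0.711 of it among controls and 17.1% ± 1.15 in dHNF4 RNAi libraries, and Hex-A 4.94% ± 0.431 and 8.02% ± 1.90 (SD, n = 5). The shares of Pgi (11.9% ± 0.833 and 7.97% ± 1.38), Tpi (10.9% ± 0.337 and 8.68% ± 0.487) and Pyk (15.5% ± 0.653 and 13.3% ± 0.503) were lower. For these 5 genes the groups did not overlap. That count has no background over all genes, since the shares are taken within the 10 members. A larger share of some members also lowers the shares of others. Tpi had a lower share at near-equal means of 339.9 TPM in controls and 339.8 TPM in dHNF4 RNAi libraries. Gapdh2 (18.8% ± 0.686 and 18.5% ± 1.24) and Ldh (5.67% ± 0.769 and 5.35% ± 1.17) held shares whose groups overlapped.

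Among controls the order of levels was Gapdh2, Eno, Pyk, Gapdh1, Pgi, Tpi, Ldh, Hex-A, Pfk and Hex-C. Within single libraries this order held in 5 of 5 controls for each pair of neighbours except Gapdh1 over Pgi (3 of 5) and Pgi over Tpi (4 of 5), so the order of these 3 genes is not resolved. Gapdh2 exceeded Eno by as little as 1.01 times in a control. In the libraries labelled dHNF4 RNAi, Eno (747 ± 51.8 TPM) and Gapdh2 (723 ± 50.0 TPM) stood at the top, with Eno above Gapdh2 in 3 of 5, and Gapdh1 at 668 ± 47.3 TPM came next, below Gapdh2 in 5 of 5. Hex-A, at 316 ± 93.3 TPM, now lay above Ldh in 5 of 5 and in the range of Pgi, which exceeded it in 2 of 5. On the TPM scale control 2 was the highest control for 7 of the 10. dHNF4 RNAi library 4 was the lowest of its group for 8, and dHNF4 RNAi library 5 the highest for 6. These counts have no background over all genes. Control 2 was also high over all tested genes, with a median-of-ratios factor of 0.926 against 0.771 to 0.841 in the other controls. dHNF4 RNAi libraries 4 and 5 had factors of 1.23 and 1.20, in a group at 1.20 to 1.25. The part of scaling in these counts was not tested. The coefficient of variation of TPM was larger in the libraries labelled dHNF4 RNAi for 8 of the 10. The share of all tested genes for which this held is not given here.

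The genes whose profiles over the 10 libraries were most like that of Ldh, by root-mean-square difference of centred log2(TPM + 1) among 7042 genes outside the 10, were CG31687 (0.156), CG10383 (0.169) and CG8679 (0.187). Pfk, a member, lay at 0.162 from Ldh, between the first pair of these. In dHNF4 RNAi library 5, where Ldh was highest, CG31687 stood at 24.0 TPM, CG10383 at 49.8 TPM and CG8679 at 9.18 TPM. Each value was the highest of the 10 libraries for that gene, which the choice by likeness over these same libraries favours. The profiles nearest to Pfk were those of CG31687 (0.0991), CG9084 (0.128) and AGBE (0.131), the glycogen branching enzyme.

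The other enzymes of the glycolytic steps were close to level on the TPM scale, and none was called there. Of all tested genes 66.9% were called higher and 16.3% lower on that scale. Of 15 genes on this list, 4 passed the filter: Ald1 (aldolase), Pgk (phosphoglycerate kinase), Pglym78 (phosphoglycerate mutase) and Pfrx (which makes the Pfk activator fructose 2,6-bisphosphate), with log2 differences of 0.04, 0.13, 0.15 and 0.13 and limma adjusted p of 0.702, 0.142, 0.160 and 0.138. After median-of-ratios scaling all 4 were called lower, with a median of -0.44, where 34.6% of tested genes were called lower. The other 11, gene copies of the same enzymes, reached at most 1.55 TPM in any library.

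The pentose phosphate pathway, which branches off at glucose 6-phosphate to make NADPH and ribose, was lower on both scales: 5 of its 7 genes were called lower and none higher on the TPM scale (median -0.47), where 16.3% of tested genes were called lower, and all 7 lower after median-of-ratios scaling (median -1.04), where 34.6% were. Zw, its entry dehydrogenase, fell from 129 ± 10.9 to 90.3 ± 12.6 TPM (log2 difference -0.52, limma adjusted p = 0.000588). Pgd, the next dehydrogenase, fell from 254 ± 16.003 to 184 ± 18.8 TPM (-0.47, adjusted p = 0.000177). Rpe and Rpi, which interconvert the pentose phosphates, fell by 0.49 and 0.51 on the log2 scale. Of the 10 trehalose and glycogen genes, 5 were called higher and 2 lower (all tested genes: 66.9% higher and 16.3% lower), with a median of 0.12, and after median-of-ratios scaling 1 was called higher and 6 lower (all tested genes: 37.6% and 34.6%). Treh, which splits the blood sugar trehalose into glucose, fell from 407 ± 47.7 to 263 ± 26.9 TPM (-0.63, adjusted p = 7.94e-05), and by 1.20 after median-of-ratios scaling. Pgm2a, a phosphoglucomutase, rose from 20.5 ± 4.22 to 55.1 ± 3.50 TPM (1.40, adjusted p = 4.66e-07), and by 0.85 after median-of-ratios scaling. GlyP, glycogen phosphorylase, rose by 0.52 on the TPM scale and stood at -0.05 after median-of-ratios scaling, while CG9485 was called lower at -0.39. Gyg, glycogenin, was called higher at 0.66 on the TPM scale, and was at 0.11 and not called after median-of-ratios scaling (adjusted p = 0.0739).

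**Figure D5:**
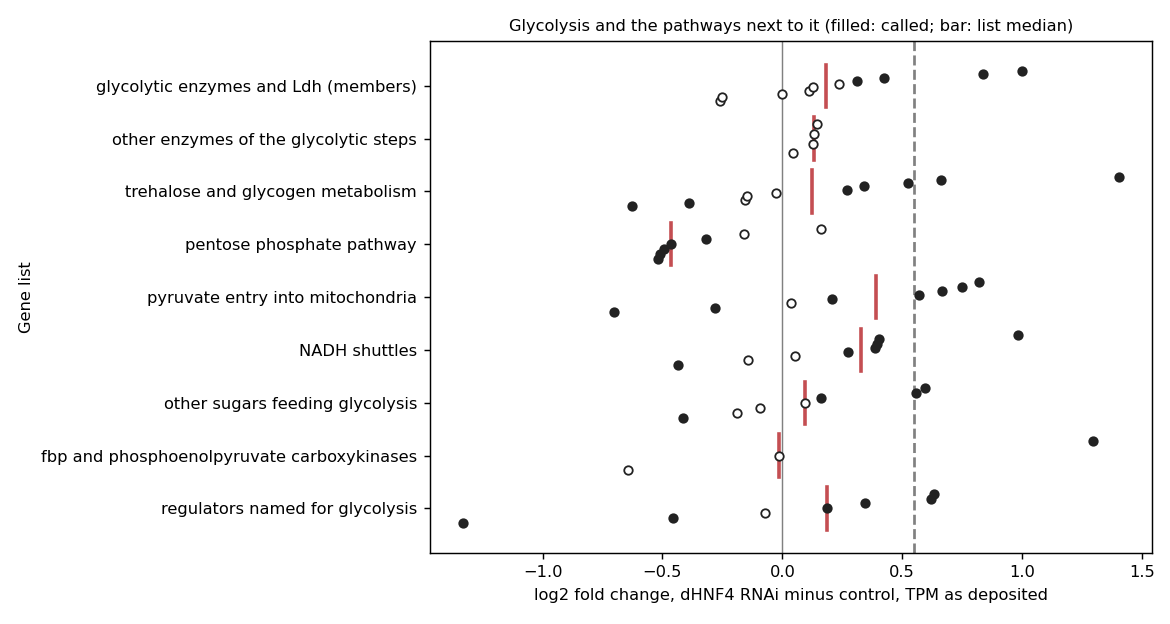
Log2 difference (libraries labelled dHNF4 RNAi minus control, TPM scale) of each tested gene of the 10 members and of the neighbouring pathway lists, 1 point per gene, with list medians and the median of all tested genes. The pentose phosphate genes have a median of -0.47 and the 10 members one of 0.18, both below the all-gene median of 0.55.

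Downstream of pyruvate, 5 of the 8 genes for its entry into mitochondria were called higher and 2 lower on the TPM scale (all tested genes: 66.9% higher and 16.3% lower), with a median of 0.39. After median-of-ratios scaling 2 were called higher and 4 lower (all tested genes: 37.6% and 34.6%). The counts on the TPM scale are thus near the background. The pyruvate dehydrogenase phosphatase Pdp (0.82) and the complex subunits muc (0.75), Pdhb (0.67) and CG7430 (0.57) were called higher on the TPM scale. After median-of-ratios scaling Pdp (0.28) and muc (0.18) stayed called, and Pdhb (0.10) and CG7430 (0.00066) did not. Pdk, the kinase that switches the complex off, fell from 81.9 ± 5.77 to 49.99 ± 5.10 TPM (-0.70, limma adjusted p = 6.97e-06), and by 1.27 after median-of-ratios scaling. The pyruvate carboxylase PCB was called lower at -0.28. The NADH shuttles compete with Ldh for cytosolic NADH. Of their 8 tested genes 5 were called higher and 1 lower on the TPM scale, with a median of 0.33 (all tested genes: 66.9% and 16.3%). After median-of-ratios scaling 1 was called higher and 4 lower (all tested genes: 37.6% and 34.6%). On the TPM scale 5 of 8 higher is near the background. Gpdh1, the cytosolic glycerol-3-phosphate dehydrogenase, fell from 389 ± 18.02 to 288 ± 29.0 TPM (-0.44, adjusted p = 0.000148), while its mitochondrial partner Gpo1 rose from 31.3 to 61.9 TPM (0.98). These 2 genes kept opposite signs after median-of-ratios scaling, at -1.01 and 0.42. Mdh2 and Got2 of the malate-aspartate shuttle were called higher at 0.40 each, turning to -0.17 and -0.18 after median-of-ratios scaling.

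On a list of genes that link other sugars to glycolysis, in either direction, Pmm2 was called higher at 0.56 and Galk at 0.16. After median-of-ratios scaling these turned to -0.01 and -0.41. Gfat2 was called lower at -0.42. Among fbp and the phosphoenolpyruvate carboxykinases, 3 were tested and 1 was called on the TPM scale (all tested genes: 66.9% higher and 16.3% lower). This was Pepck2, which rose from 5.37 ± 0.932 to 14.6 ± 1.46 TPM, a log2 difference of 1.30, while Pepck1 stood at -0.01. After median-of-ratios scaling all 3 were called, Pepck2 higher (0.78) and fbp (-1.21) and Pepck1 (-0.58) lower (all tested genes: 37.6% and 34.6%).

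Of 8 regulators named for glycolysis, 7 were tested, 4 were called higher and 2 lower on the TPM scale, and 0 higher and 5 lower after median-of-ratios scaling. Of all tested genes 66.9% were called higher and 16.3% lower on the first scale, and 37.6% and 34.6% on the second, so 4 of 7 higher is near the background. ERR, a nuclear receptor that drives glycolytic genes and Ldh in Drosophila embryos and larvae, fell from 41.3 ± 6.16 to 29.6 ± 0.898 TPM (SD, n = 5; log2 difference -0.46, limma adjusted p = 0.000443), and by 1.02 after median-of-ratios scaling. The sugar-responsive factor sug (sugarbabe) fell from 81.2 ± 31.1 to 30.9 ± 7.84 TPM (-1.33, adjusted p = 0.000340), and by 1.90 after median-of-ratios scaling. sima, the fly HIF factor, was called higher at 0.35 and its partner tgo at 0.62, while Hph, the prolyl hydroxylase that marks sima for breakdown, was called higher at 0.63. After median-of-ratios scaling these values were -0.22, 0.10 and 0.062, and neither tgo nor Hph was called. Of the sugar-sensing pair, Mondo was called higher at 0.19, turning to -0.37 after median-of-ratios scaling, and bigmax stood at -0.07 (adjusted p = 0.418). Hr38 was not tested, at most 0.139 TPM in any library.

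The authors' deposited table of fold changes, whose making is not described in the sources used here, called few of the members. In the authors' deposited table the unadjusted p was below 0.05 for Pgi alone among the 10 (log2 fold change -0.879, p = 0.0239), where 21.9% of the 10494 genes in the authors' deposited table passed that threshold in the higher direction and 17.9% in the lower. The authors' deposited table gave Gapdh1 0.455 (p = 0.0638) and Hex-A 0.272 (p = 0.480) as the 2 positive members, and the other 8 as negative. After Benjamini-Hochberg adjustment over the authors' deposited table, computed here, no member passed 0.05, with Pgi at 0.0728. The share of all genes that passed after this adjustment is not given here, so this count has no background.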

How the data were processed

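RNA-seq libraries (5 control, 5 labelled dHNF4 RNAi; stranded kit per the labels' protocols) were taken as deposited. The authors deposited TPM values and, in a second table, log2 fold changes with unadjusted p-values. Per the submitters' processing notes, kallisto, edgeR, Trim Galore and FastQC were used, on BDGP6. The notes give no versions and do not assign tools to tables. RUVSeq, a tool for removing unwanted factors, is named with the deposited results, and whether it shaped the TPM is not given in the sources used here. TPM keeps no depth, so no count test was run.

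All 10 value columns were matched to libraries by name. The 8784 genes averaging 1 TPM or more over 10 libraries (5526 fell below this) were fitted as log2(TPM + 1) in limma 3.58.1 (R 4.3.3) with trended moderation, both groups in one fit, and Benjamini-Hochberg adjustment over all tested genes; 0.05 was the threshold. Fold changes on this scale understate changes of low genes. Ratios between genes were compared with exact permutation tests. The fit was tested on simulated data in which few genes changed and the typical gene did not shift, unlike these data. It therefore does not bear on the choice of scaling here. Median-of-ratios and quantile scaling, pseudocounts of 0.1 and 5, other filters, other moderation, library weights, a replicate block and leaving out each library were tried. So was rescaling without the 20 genes of highest mean over all libraries and the genes of the mitochondrial genome, with 8751 genes tested. The labels call the libraries biological replicates.

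The 10 genes and all lists (158 of 160 list names were found; CG5261 and CG8808 were not matched) were chosen with earlier results of these data known. Named from each other list were up to 4 called genes with the smallest adjusted p and those called against the list's majority, plus all glycolysis regulators and the 3 nearest profiles of Ldh and Pfk. A gene that the rule would name is not reported here. Positions are from Ensembl annotation release 115 (BDGP6.54), which held 14263 of the 14310 gene IDs.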

Additional observations from a re-analysis of the deposited data

Results flagged for a closer look

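There were 30 groups of 5 libraries: the 10 members, the 4 ratios and the summed level, each in both groups. Of these, 5 held a library far from the rest, where chance gives about 1 in 20 for a single group. The ratios and the sum reuse the values of members in the same libraries. The 30 groups are thus not independent, and no excess over chance is read from the 5. dHNF4 RNAi library 4 was low for Eno, at 657.2 TPM against 749.7 to 783.4 TPM in the other 4 of its group, and for Pyk, at 429.5 TPM against 525.8 to 560.5 TPM. dHNF4 RNAi library 5 was high for Ldh, at 324.2 TPM against 162.2 to 206.3 TPM, and for the log2 ratio of Ldh to Pyk, at -0.79 against -1.56 to -1.38. Control 2 was high for the log2 ratio of Hex-A to Hex-C, at 3.40 against 2.80 to 2.84 in the other controls.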

How the results depend on the processing

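Scaling decided most calls. Genes called higher numbered 5878 with TPM, 3303 with median-of-ratios and 3888 with quantile scaling, and genes called lower 1429, 3042 and 2557. Members called higher numbered 4, but 1 with median-of-ratios scaling. They numbered 0 in the authors' table after adjustment, where the share of all genes is not given. Members called lower numbered 0, but 7 with median-of-ratios scaling and 1 with quantile scaling. With the tubule covariate 1 was called lower (Hex-C), but 0 with Irk2 in it. With median-of-ratios scaling the sign turned for Pfk (-0.44), Gapdh2 (-0.26), Eno (-0.15), Pyk (-0.46), Ldh (-0.34), GlyP (-0.048), Mdh2 (-0.17), Got2 (-0.18), Pmm2 (-0.0093), Galk (-0.41), sima (-0.22), Mondo (-0.37) and Hnf4 (-0.32). With quantile scaling it turned for Pfk (-0.23), Tpi (0.0069), Galk (-0.13), sima (-0.027), Mondo (-0.28) and Hnf4 (-0.18), and after rescaling without the most abundant genes for Pyk (-0.013). Tpi, near 0, was 0.042 with library weights and 0.014 with the tubule covariate (0.0011 with Irk2).

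Leaving out 1 library gave 5778 to 5981 genes called higher and 1340 to 1458 lower, 4 to 5 members higher and 0 to 1 lower. It gave log2 ratio differences of 1.04 to 1.45 for Hex-A to Hex-C, 0.50 to 0.55 for Gapdh1 to Gapdh2, -0.012 to 0.18 for Ldh to Pyk and 0.56 to 0.92 for Pfk to fbp, and Tpi from -0.045 to 0.047. Pfk to fbp was 0.54 (exact permutation, adjusted p = 0.0847) with quantile scaling. The causes were not tested.

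The replicate numbers did not pair the libraries (same-number correlations of deviations -0.165, 0.134, 0.0237, 0.358 and -0.331, and 1 of 5 controls correlated best with the library of its own number). With a replicate block the ratio differences of 1.25, 0.53 and 0.77 had an adjusted p of 0.0833 each, where 32 exact sign flips allow no p under 0.0625. The block changed no call of a member in limma. Promoter motifs were not run, since no sequence was used here. Depth is unknown, and 5 libraries a group limit the precision.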
